A study of Mus musculus with 84 samples.

Results

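Astrocytes receive inflammatory signals through receptors for IL-17, interferons, TNF, IL-1 and the IL-6 family of cytokines. The transcripts of 9 such receptor genes were followed here, namely Il17ra, Ifngr1, Ifngr2, Ifnar1, Ifnar2, Tnfrsf1a, Il1r1, Il6st and Lifr. They were chosen by name as a list of receptors, and their Ensembl identifiers were matched to GRCm38 symbols. The 9 genes are part of 48526 genes listed for the experimental autoimmune encephalomyelitis (EAE) experiment and of 25773 listed for the experiment on astrocyte subtypes.

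As background, cytokine receptors of this kind work as complexes. IL17RA binds IL-17A together with IL17RC and recruits the adaptor ACT1, and TNFR1 (encoded by Tnfrsf1a) and IL1R1 both lead to activation of NF-kappaB. IFNGR1 binds interferon gamma and IFNGR2 completes its receptor, IFNAR1 and IFNAR2 together bind type I interferons, and gp130 (encoded by Il6st) and LIFR pass signals of IL-6, LIF, CNTF and oncostatin M to STAT3. EAE is a model of multiple sclerosis in which T cells against myelin enter the central nervous system, and astrocytes are known to respond there to IL-17, interferon gamma, TNF and IL-1.

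The EAE experiment comprised 66 RNA-seq libraries in 12 groups. Female C57BL/6 mice (C57BL/6J by the labels), 10 weeks old, were immunized with a MOG peptide in complete Freund's adjuvant and given pertussis toxin, and were taken at score 1 with a limp tail (E1), at score 4 with hind leg paralysis (E4) or in the chronic stage (Ech). Controls (C) were not immunized, so that the adjuvant and the toxin belong to the difference between stage and control. Live CD11Bneg CD45neg ACSApos cells were sorted from hindbrain (cerebellum and brain stem) as GLASTneg and GLASTpos, and from spinal cord (cervical and thoracic) as GLASTneg. Hindbrain GLASTneg comprised 5 C, 6 E1, 6 E4 and 6 Ech libraries, hindbrain GLASTpos 5, 6, 6 and 4, and spinal cord GLASTneg 5, 5, 6 and 6. The subtype experiment held 15 libraries of cells sorted in the same way from naive FVB/N mice, 3 for each of 5 groups, and 3 libraries of astrocytes cultured from neonatal C57BL/6J cerebrum. The cultures had held microglia, which were shaken off. A library could hold the RNA of 1 mouse or of 2, so that p-values measure the spread between such pools.

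Markers of other cells and labels were examined first, because they bear on the spinal cord and on the subtype groups. All values are counts scaled to a library of 1000000 counts (CPM) with TMM factors. The summed level of 10 astrocyte markers lay between 18130 and 30927 CPM in the hindbrain libraries. In spinal cord it was 13071 to 18366 CPM in C, 4317 to 22252 in E1, 2430 to 3930 in E4 and 3500 to 5976 in Ech, while the 10 oligodendrocyte markers summed to 14358 to 41875, 26912 to 62071, 30361 to 77684 and 25393 to 41609 CPM. The astrocyte sum was below every control in all E4 and Ech libraries and in 4 of 5 E1 libraries. The oligodendrocyte sums overlapped with controls at each stage, with medians of 18344 CPM in C, 41560 in E1, 53775 in E4 and 31016 in Ech. Their part in the receptor values was not tested. Fewer astrocytes in a sorted pool and less RNA per astrocyte cannot be told apart in such bulk samples.

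The 13 myeloid markers summed to at most 127 CPM in controls and at most 834 CPM in all EAE libraries other than 1. That library, spinal cord E4 replicate 2, reached 6590 CPM, and the receptor calls that involve spinal cord E4 are also given without it. Spinal cord E1 replicate 2 had the highest astrocyte sum of its group (22252 CPM against at most 9917). For spinal cord E1 replicate 1 the title and the region field of the labels disagree. Its 5 spinal cord homeobox genes (Hoxc6, Hoxc8, Hoxc9, Hoxa7 and Hoxa9) summed to 179 CPM, within the range of spinal cord libraries (34.1 to 483 CPM) and far from that of hindbrain libraries (0 to 11 CPM), so that the title was used. Library totals were 1313682 to 4895220 counts in the EAE experiment, where 3 counts, the floor for detection used here, equal 0.613 to 2.28 CPM. Floors cover counting error only, whereas the SD and SE values given below include the spread between libraries.

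**Figure D1:**
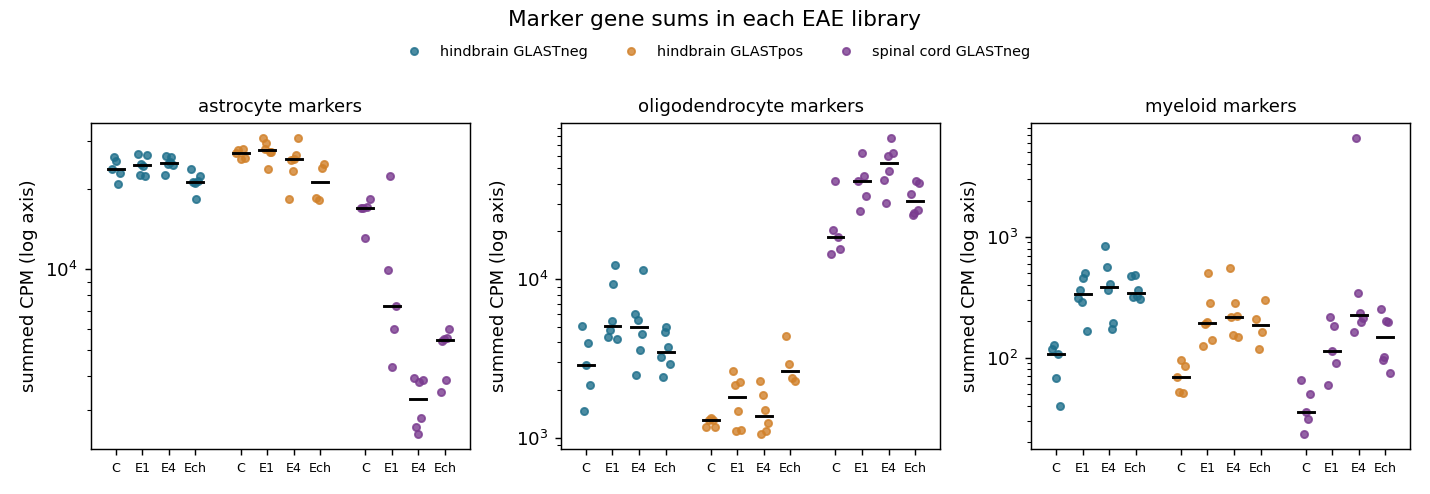
Summed CPM of the astrocyte, oligodendrocyte and myeloid marker lists (log axis) in each EAE library, by group. Points are libraries and the black line is the median. In spinal cord the astrocyte sum was lower at E4 (2430 to 3930 CPM) than in C (13071 to 18366 CPM), and 1 E4 library stood apart at 6590 CPM of myeloid markers.

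All 9 genes lie on the plus strand in GRCm38. Il17ra (ENSMUSG00000002897, chr6:120463247-120487559) and Tnfrsf1a (ENSMUSG00000030341, chr6:125349362-125362484) share chromosome 6. Ifngr1 (ENSMUSG00000020009) lies at chr10:19591949-19610229, Il1r1 (ENSMUSG00000026072) at chr1:40225080-40317257, Il6st (ENSMUSG00000021756) at chr13:112464070-112510086 and Lifr (ENSMUSG00000054263) at chr15:7090614-7197489. Ifnar2 (ENSMUSG00000022971, chr16:91372783-91405589), Ifnar1 (ENSMUSG00000022967, chr16:91485238-91507441) and Ifngr2 (ENSMUSG00000022965, chr16:91547072-91565623) stand in that order in 1 cluster, with Il10rb (91406164 to 91425834) between the first pair. Ifnar2 overlaps Gm21970 and Il1r1 overlaps Gm38070 on the same strand, so that reads in the shared stretches could have been assigned to neither gene.

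The 3 clustered interferon receptor genes are shown by sequence because they are neighbours. Ifnar2 was higher in diseased spinal cord, and no change was detected for Ifnar1 or for Ifngr2, which was low throughout. Whether the 3 genes differed from each other in their change was not tested. The 250 bases before each start site (RefSeq, GRCm38.p6, plus strand, 5′ to 3′) were searched on both strands for 3 motifs, namely TTCNNNGAA (bound by STAT factors), GAAA repeated after 2 further bases (found in interferon response elements) and a 10-letter kappaB motif (bound by NF-kappaB), whose reverse complement stands in capitals in the Ifngr2 window. Capitals mark a match, which is a description of the letters and not evidence of binding.
Ifnar2 (chr16:91372533-91372782): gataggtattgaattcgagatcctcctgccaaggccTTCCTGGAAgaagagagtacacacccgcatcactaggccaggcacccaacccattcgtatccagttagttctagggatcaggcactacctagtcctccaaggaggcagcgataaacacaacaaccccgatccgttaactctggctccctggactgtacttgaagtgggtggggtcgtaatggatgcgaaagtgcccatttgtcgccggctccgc
Ifnar1 (chr16:91484965-91485214): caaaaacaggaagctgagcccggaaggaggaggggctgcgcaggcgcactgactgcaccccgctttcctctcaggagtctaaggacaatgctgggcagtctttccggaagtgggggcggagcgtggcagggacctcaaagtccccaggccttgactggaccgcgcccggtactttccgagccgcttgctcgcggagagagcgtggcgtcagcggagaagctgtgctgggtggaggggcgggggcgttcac
Ifngr2 (chr16:91546809-91547058): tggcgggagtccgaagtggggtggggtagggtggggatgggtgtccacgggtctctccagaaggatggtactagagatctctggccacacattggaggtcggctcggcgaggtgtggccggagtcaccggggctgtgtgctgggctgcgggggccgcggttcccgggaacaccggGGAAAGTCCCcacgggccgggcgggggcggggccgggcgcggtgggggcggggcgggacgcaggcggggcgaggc

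The Ifnar2 window held 1 match to the STAT motif, 214 bases before the start, and the Ifngr2 window held the kappaB motif on the reverse strand 75 bases before the start. The Ifnar1 window held none of the 3 motifs. Among 32851 promoter windows of the same length, the STAT motif was present in 7.02%, the interferon response motif in 2.98% and the kappaB motif in 0.14%. GC content was 54.0% before Ifnar2, 65.6% before Ifnar1 and 74% before Ifngr2. RefSeq windows were matched for 8 of the 9 genes, and Tnfrsf1a also held a TTCNNNGAA match, 244 bases before the annotated start used. That window (chr6:125349473-125349722) overlaps 1 exon and lies within the span of the gene given above.

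Of the 9 receptors, 7 were above 3 counts in all 66 EAE libraries, Ifngr2 in 59 and Il1r1 in 30. Libraries were made from the 3′ ends of transcripts, so levels are compared between groups for 1 gene and not between genes. Over the 12 group means, Tnfrsf1a spanned 6.99-fold (36.3 CPM in control hindbrain GLASTpos to 254 CPM in hindbrain GLASTneg at E4), Lifr 5.52-fold (29.1 CPM in spinal cord at Ech to 160 CPM in hindbrain GLASTneg at E4) and Il17ra 4.46-fold (61.7 CPM in spinal cord at E4 to 275 CPM in hindbrain GLASTpos at E4). Il6st (49.4 to 114 CPM), Ifnar1 (13.0 to 30.5 CPM), Ifnar2 (21.0 to 62.4 CPM) and Ifngr1 (25.2 to 75.7 CPM) spanned 2.31- to 3.01-fold. When the 12 groups were ordered by mean, most neighbours differed by less than the larger of their SDs. The exceptions were Il17ra between hindbrain GLASTneg E4 and Ech (252 and 177 CPM), Ifnar2 between spinal cord E1 and C (40.4 and 21.0 CPM), Tnfrsf1a between hindbrain GLASTpos Ech and C (65.7 and 36.3 CPM), and Lifr between hindbrain GLASTneg Ech and spinal cord E1 (114 and 76.5 CPM).

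**Figure D2:**
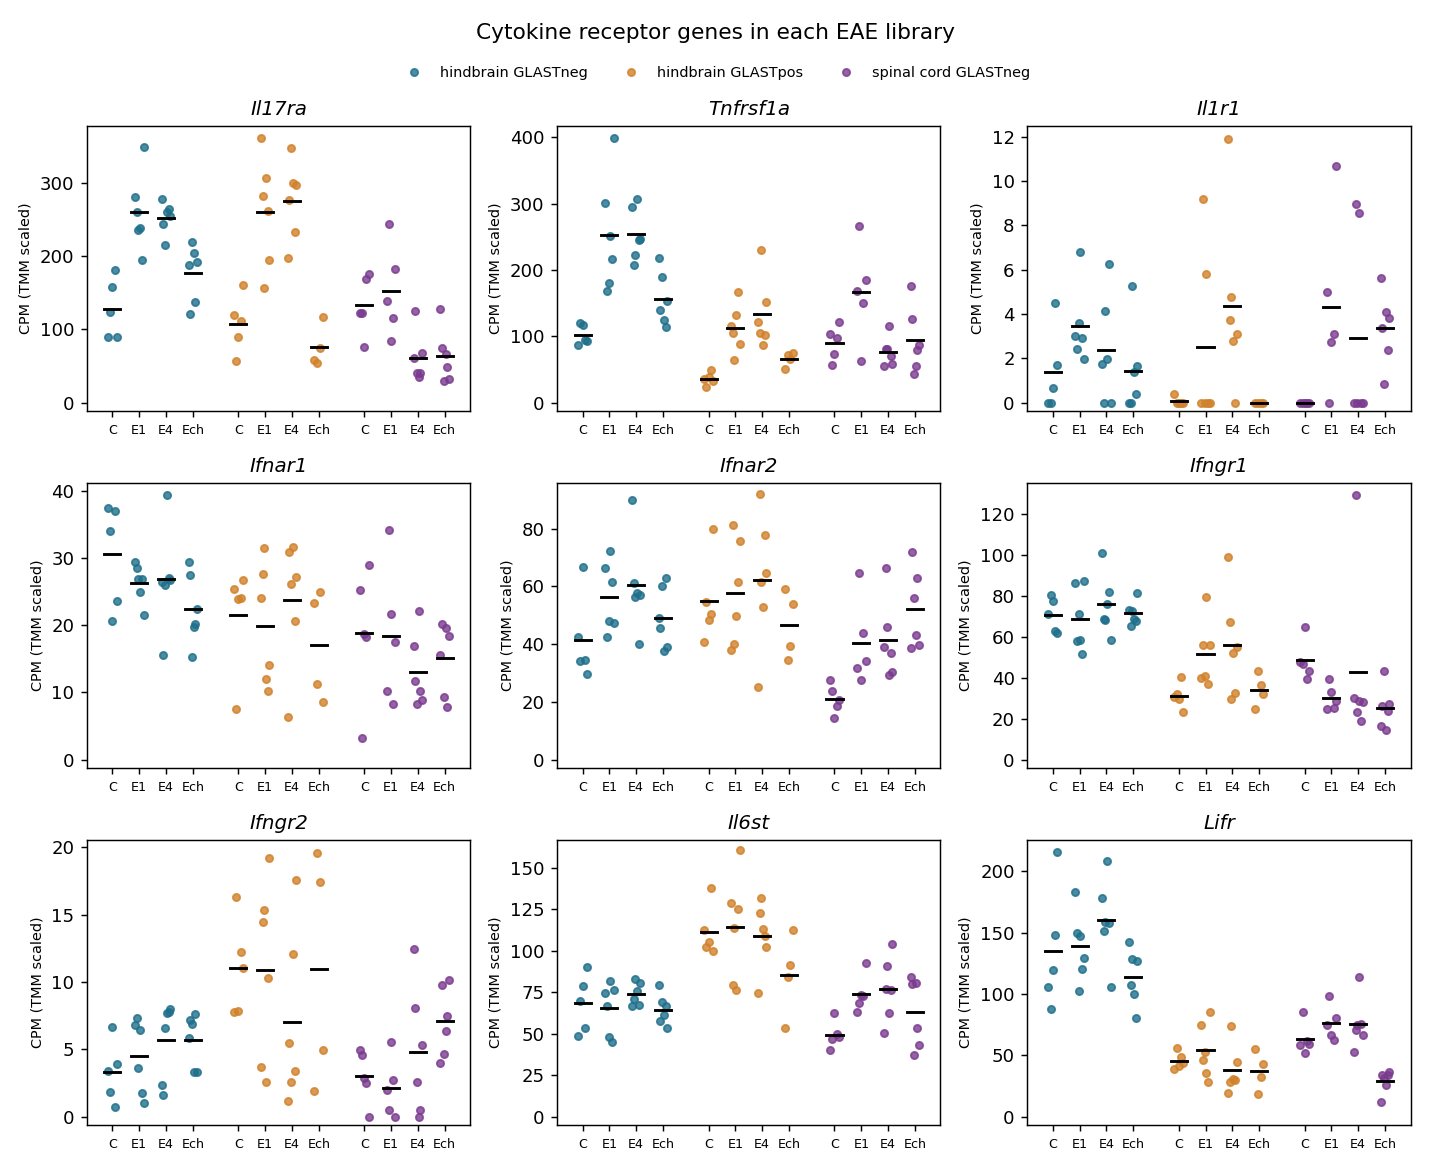
CPM of each of the 9 receptor genes in every EAE library (points), by population and stage, with the group mean (black line). Il17ra was highest at E1 and E4 in both hindbrain populations, with group means of 252 to 275 CPM against 108 and 128 CPM in controls.

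The first comparison asked how receptor transcripts of hindbrain GLASTneg astrocytes differed between EAE stages and controls. Tnfrsf1a, which encodes the TNF receptor found on most cell types, was the 1 receptor of 9 that passed the test at E1 and at E4, where it was higher. The control libraries held 86.7, 121, 117, 95.2 and 93.3 CPM, the E1 libraries 168 to 398 CPM (median 234) and the E4 libraries 208 to 307 CPM (median 246). Every E1 and E4 library lay above every control. The log2 fold change was 1.30 ± 0.28 (SE; edgeR quasi-likelihood test, adjusted p = 0.00384) at E1 and 1.31 ± 0.28 (adjusted p = 0.00307) at E4. Of the 23324 genes tested, 0.677% passed at E1 and 0.755% at E4.

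Il17ra, the shared subunit of the IL-17 receptors, showed the same separation without passing the test across all genes. Controls held 90.1, 123, 157, 181 and 89.4 CPM, against 195 to 349 CPM (median 249) at E1 and 214 to 277 CPM (median 257) at E4. No E1 or E4 library overlapped with the controls. The log2 fold changes were 1.02 ± 0.29 (adjusted p = 0.0824) and 0.98 ± 0.29 (adjusted p = 0.113), and both passed when the fit held this population alone (adjusted p = 0.000252 and 0.000379), a fit under which 2 spinal cord calls given below were lost. DESeq2 called E1 (adjusted p = 0.0372) and not E4.

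At Ech none of the 9 receptors passed in hindbrain GLASTneg astrocytes by edgeR or DESeq2, and 1 was under an unadjusted p of 0.05, against 0.197% of all genes passing. That gene was Tnfrsf1a, at 114 to 217 CPM (median 147), with 5 of 6 libraries above all controls (log2 fold change 0.61 ± 0.27, adjusted p = 0.653). Il17ra at Ech, 121 to 220 CPM, overlapped with the controls. The other 7 receptors overlapped with controls at every stage. Over the 9 genes the median log2 fold change was 0.44 at E1, 0.54 at E4 and 0.04 at Ech, where that of all genes was 0. Myeloid markers summed to 40 to 127 CPM in these controls, 167 to 501 at E1, 171 to 834 at E4 and 307 to 482 CPM at Ech; oligodendrocyte markers summed to 1470 to 5103, 4211 to 12328, 2483 to 11383 and 2423 to 4995 CPM. Their part in the Tnfrsf1a and Il17ra values was not tested.

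In hindbrain GLASTpos astrocytes both Il17ra and Tnfrsf1a passed, and both were higher at E1 and at E4. Tnfrsf1a started from a lower level here, with 36, 23.5, 39.5, 49.0 and 33.6 CPM in controls. It reached 64.5 to 167 CPM (median 111) at E1 and 87.5 to 230 CPM (median 113) at E4, so that no EAE library overlapped with a control. The log2 fold change was 1.63 ± 0.28 at E1 (adjusted p = 0.000107) and 1.87 ± 0.29 at E4 (adjusted p = 4.44e-06). In this population 1.58% of all genes passed at E1 and 2.18% at E4.

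For Il17ra the GLASTpos controls held 119, 57.6, 89.4, 112 and 160 CPM. The E1 libraries held 156 to 361 CPM (median 271) and the E4 libraries 197 to 348 CPM (median 286). At E1, 5 of 6 libraries were above all controls, and at E4 all 6 were. Log2 fold changes were 1.27 ± 0.29 (adjusted p = 0.00648) and 1.35 ± 0.29 (adjusted p = 0.00224). Ifngr1, the ligand-binding chain of the interferon gamma receptor, was above all controls in 4 of 6 libraries at each of these stages, at 36.9 to 79.5 and 29.4 to 98.9 CPM against 30.7, 31.8, 29.7, 40.1 and 23.3 CPM, without passing (log2 fold change 0.73 ± 0.30, adjusted p = 0.195, and 0.85 ± 0.30, adjusted p = 0.124).

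At Ech 0 of 9 receptors passed in hindbrain GLASTpos by edgeR and by DESeq2, with 1 under an unadjusted p of 0.05 and 1.43% of all genes passing. Tnfrsf1a still lay above all controls, at 51.3, 71.7, 65.3 and 74.6 CPM (log2 fold change 0.85 ± 0.30, adjusted p = 0.132). Il17ra was at 57.8, 53.8, 74.7 and 117 CPM, within or below the control range. The median over the receptors was 0.24 at E1, 0.18 at E4 and -0.27 at Ech (8 genes, as Il1r1 was under the floor in both groups), against 0 for all genes. T cell markers, of which Cd3e, Cd3d and Cd3g were at 0 in these controls, summed to at most 311 CPM at E1 and at most 564 CPM at E4, and myeloid markers to 126 to 498 and 147 to 555 CPM against 51 to 96 CPM. Their part in these values was not tested.

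Whether GLASTneg and GLASTpos astrocytes of the hindbrain responded differently was tested as the difference between their stage effects. No receptor passed at E1, E4 or Ech by edgeR or DESeq2, and 0, 1 and 1 of the 9 were under an unadjusted p of 0.05. Across all genes 0.00857%, 0.00857% and 0.06% passed. A call in 1 population and not in the other is therefore not shown to be a difference between them.

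**Figure D3:**
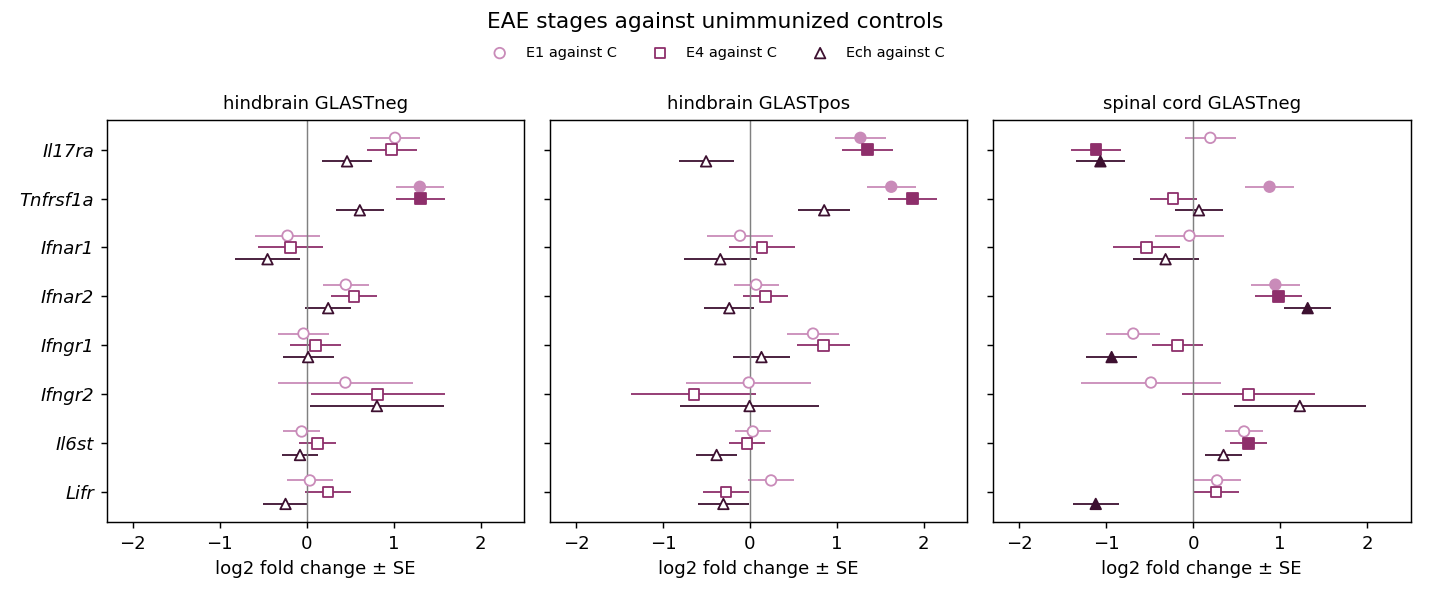
Log2 fold change of 8 receptors against controls at E1, E4 and Ech in the 3 populations (bars, SE), with filled symbols at an adjusted p under 0.05. Il1r1 is left out because 2 control groups were under its floor. Tnfrsf1a was higher in both hindbrain populations, and Il17ra was lower in spinal cord at E4 (-1.11) and Ech (-1.07).

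Cells sorted as spinal cord GLASTneg astrocytes showed another pattern over the stages. At E1, 3 of 9 receptors passed and all were higher, namely Tnfrsf1a, Ifnar2 and Il1r1. At E4, 4 passed, with Ifnar2, Il6st and Il1r1 higher and Il17ra lower. At Ech, 5 passed, with Ifnar2 and Il1r1 higher and Il17ra, Ifngr1 and Lifr lower. Without the astrocyte-rich E1 replicate 2, 1 receptor passed at E1, where 10.2% of all genes passed in that fit. Without E4 replicate 2, 5 passed at E4, Ifngr1 being added, where 20.1% of all genes passed. With all libraries, 8.42%, 22.4% and 18.7% of all genes passed at the 3 stages (3.94%, 9.76% and 7.64% higher and 4.48%, 12.7% and 11% lower). The members' shares thus stand against a background that was itself high. The median log2 fold change of the 9 genes was 0.28, 0.26 and 0.07, and that of all genes 0. In these libraries oligodendrocyte markers summed to medians of 18344 CPM in C and 53775 CPM at E4. Astrocyte markers summed to medians of 17005 and 3296 CPM, and the part of both lists in the receptor values was not tested.

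Il17ra in the spinal cord did not pass at E1 and was lower at the later stages. Controls held 123, 122, 76.5, 168 and 176 CPM and the E1 libraries 139, 243, 84.1, 115 and 182 CPM, which overlap (log2 fold change 0.20 ± 0.29, adjusted p = 0.79). The E4 libraries held 35.4 to 125 CPM (median 50.6) and the Ech libraries 29.8 to 128 CPM (median 57.9). At both stages 5 of 6 libraries were below all controls. Log2 fold changes were -1.11 ± 0.28 (adjusted p = 0.00192) and -1.07 ± 0.28 (adjusted p = 0.00368), and E4 was also lower than E1 (-1.31 ± 0.28, adjusted p = 0.000778). Between E1 and E4, 5.97% of all genes passed. The highest E4 library was replicate 2, rich in myeloid markers, and without it the fold change was -1.45 ± 0.29 against controls (adjusted p = 5.69e-05) and -1.63 ± 0.29 against E1 (adjusted p = 2.19e-05). All E4 and Ech libraries had an astrocyte marker sum below every control, and its part in the Il17ra values was not tested.

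Tnfrsf1a was higher in spinal cord at E1, at 168, 267, 63.2, 150 and 184 CPM against 103, 56.4, 73.7, 98.3 and 121 CPM in controls. Of the E1 libraries 4 of 5 lay above all controls (log2 fold change 0.88 ± 0.28, adjusted p = 0.0386). This call rested on single libraries, since it held in 2 of 10 fits that each left out 1 library, and without the astrocyte-rich E1 replicate 2 it was 0.64 ± 0.29 (adjusted p = 0.149). It also did not pass when the fit held spinal cord alone (0.90 ± 0.34, adjusted p = 0.107). At E4 it was 55.8 to 116 CPM and at Ech 43.6 to 175 CPM, both overlapping with controls. From E1 to E4 it fell by 1.11 on the log2 scale (SE 0.27, adjusted p = 0.00363), or by 0.84 without E1 replicate 2 (adjusted p = 0.0805). Without E4 replicate 2 it fell by 1.11 (adjusted p = 0.00747).

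The stage effects of spinal cord and hindbrain GLASTneg astrocytes were then compared directly. For Il17ra they differed at E4, by -2.09 ± 0.40 on the log2 scale (adjusted p = 9.49e-05), with spinal cord lower and hindbrain higher than their own controls, and at Ech, by -1.53 ± 0.40 (adjusted p = 0.00763). For Tnfrsf1a they differed at E4 by -1.54 ± 0.38 (adjusted p = 0.00398). Thus 2 of 9 receptors passed at E4, where 8.56% of all genes passed, and 1 at Ech, where 7.2% did. At E1 no receptor passed by edgeR or DESeq2, 3 were under an unadjusted p of 0.05, and 0.214% of all genes passed. These differences held in all 22 fits that left out 1 library, and without spinal cord E4 replicate 2 those at E4 were -2.44 ± 0.40 for Il17ra (adjusted p = 2.36e-06) and -1.58 ± 0.40 for Tnfrsf1a (adjusted p = 0.00426). Astrocyte markers moved with them, since their sum stayed at 18130 CPM or more in all hindbrain libraries and was lower in spinal cord at E4, and the part of this was not tested. The labels also carry a sheet number, 60 or more in spinal cord controls and below 57 in all spinal cord E4 libraries but 1. In hindbrain GLASTneg it was 25 to 56. With this number as a covariate, Il17ra in spinal cord did not pass at E4 or Ech (adjusted p = 0.271 and 0.0821). Tnfrsf1a at E4 was then 0.44 against controls (adjusted p = 0.581). The part of the sheet number in the differences between populations was not tested.

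Among the interferon receptors, Ifnar2 was the 1 that was higher in spinal cord at all 3 stages. Ifnar2 encodes the high-affinity chain of the type I interferon receptor. Controls held 27.8, 23.6, 14.3, 18.5 and 20.6 CPM, E1 libraries 31.6, 64.7, 27.7, 43.8 and 34 CPM, E4 libraries 29.2 to 66.5 CPM (median 38) and Ech libraries 38.8 to 71.8 CPM (median 49.6). All E4 and Ech libraries and 4 of 5 E1 libraries lay above all controls. Log2 fold changes were 0.95 ± 0.28 at E1 (adjusted p = 0.0209), 0.98 ± 0.27 at E4 (adjusted p = 0.00438) and 1.32 ± 0.27 at Ech (adjusted p = 0.000133). The E1 call was lost in 4 of 10 fits that left out a library, including the one without E1 replicate 2 (0.71 ± 0.28, adjusted p = 0.101), whereas the E4 and Ech calls held in all 11. Without E4 replicate 2 the E4 value was 0.79 ± 0.27 (adjusted p = 0.0291). All E4 and Ech libraries had an astrocyte marker sum below every control, and its part in the Ifnar2 values was not tested.

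Ifnar1, the other chain of that receptor, passed in none of the comparisons. In spinal cord it was 25.3, 3.28, 18.6, 18.2 and 29.0 CPM in controls, 10.2, 34.2, 21.7, 8.22 and 17.4 at E1, 8.30 to 22.2 at E4 and 7.80 to 20.2 CPM at Ech. The groups overlapped at every stage. In both hindbrain populations it also stayed within 6.30 to 39.4 CPM over all stages, and Ifnar2, at 25.2 to 92 CPM, passed in neither of them.

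Ifngr1 was lower in the chronic spinal cord. Controls held 47.6, 46.9, 64.5, 39.6 and 43.5 CPM and the Ech libraries 14.5 to 43.1 CPM (median 24.8), with 5 of 6 below all controls (log2 fold change -0.94 ± 0.30, adjusted p = 0.0175). This call did not hold when the fit contained spinal cord alone (-0.90 ± 0.38, adjusted p = 0.0901). At E1, 24.6, 39.2, 33.2, 25 and 28.7 CPM lay below all controls without passing (-0.69 ± 0.31, adjusted p = 0.149). At E4, 5 of 6 libraries lay below all controls and replicate 2 stood at 129 CPM, above all of them. With that library the fold change was -0.18 ± 0.30 (adjusted p = 0.755), and without it -0.93 ± 0.25 (adjusted p = 0.00421). The myeloid markers of that library summed to 6590 CPM.

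Ifngr2, the second chain of the interferon gamma receptor, was low throughout. It lay at 0 to 4.96 CPM in spinal cord controls, 0 to 5.53 at E1, 0 to 12.4 at E4 and 4.00 to 10.1 CPM at Ech, where 4 of 6 libraries were above all controls (log2 fold change 1.23 ± 0.76, adjusted p = 0.258). It passed in none of the comparisons, and the spinal cord libraries held 0 to 37 counts of it.

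Of the receptors of the IL-6 family, Il6st was higher in spinal cord at E4 and Lifr was lower at Ech, and they did not pass at the same stage. Il6st, which encodes the shared signal transducer gp130, held 40.2, 46.9, 62.2, 49.9 and 47.7 CPM in controls and 50.2 to 104 CPM (median 76.8) at E4. Of the E4 libraries 5 of 6 were above all controls (log2 fold change 0.64 ± 0.21, adjusted p = 0.0226), a call that held in 8 of 11 fits that left out a library, among them the one without E4 replicate 2 (0.63 ± 0.22, adjusted p = 0.034). At E1 all libraries, at 63.2, 68.8, 73.5, 73 and 92.8 CPM, were above all controls without passing (0.59 ± 0.22, adjusted p = 0.0858). At Ech Il6st was 37 to 84.4 CPM and overlapped with controls. In both hindbrain populations it overlapped at every stage.

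Lifr, which pairs with gp130 for LIF and CNTF, was lower in spinal cord at Ech alone among the stages. Controls held 58.0, 85, 51.9, 61.9 and 59 CPM, E1 libraries 74.9, 98, 66.8, 62.7 and 80.1 CPM and E4 libraries 52.5 to 114 CPM (median 72.9). The Ech libraries, at 12.2 to 36.7 CPM (median 32.8), lay below every other spinal cord library. The log2 fold change was -1.12 ± 0.27 against controls (adjusted p = 0.000996) and -1.38 ± 0.26 against E4 (adjusted p = 0.000186), a comparison in which 4.45% of all genes passed. Without E4 replicate 2 the latter was -1.42 ± 0.27 (adjusted p = 0.000242). Astrocyte markers summed to 3500 to 5976 CPM at Ech and to 2430 to 3930 CPM at E4. Markers of oligodendrocyte precursors summed to 727 to 2575 CPM at Ech against 359 to 805 CPM in controls, and the part of both lists was not tested. Lifr was 18.5 to 85.7 CPM in hindbrain GLASTpos and 80.5 to 216 CPM in hindbrain GLASTneg and passed there at no stage.

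Il1r1, the signalling receptor for IL-1, was near the limit of detection and its highest library held 51 counts. In spinal cord controls all 5 libraries held 0 counts. At E1 the libraries held 4.98, 0, 2.77, 3.08 and 10.7 CPM, at E4 0 to 8.99 CPM (median 0) and at Ech 0.846 to 5.64 CPM (median 3.6). Above the floor were 0 of 5 control, 4 of 5 E1, 2 of 6 E4 and 6 of 6 Ech libraries. Set against the floor of 3 counts per library, the means were at least 3.73-, 2.54- and 2.92-fold higher (adjusted p = 0.0145, 0.00986 and 0.00925). The summed counts behind these means were 74 at E1, 42 at E4 and 70 at Ech. At E4, 20 of the 42 counts came from replicate 2, without which the mean was 1.71 CPM, at least 1.49-fold higher (adjusted p = 0.0269). The other 22 counts all came from replicate 4, so that without replicate 2 the E4 call rested on that 1 library.

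In hindbrain GLASTpos Il1r1 was above the floor in 0 of 5 controls, 2 of 6 libraries at E1, 5 of 6 at E4 (0 to 11.9 CPM, median 3.41) and 0 of 4 at Ech. It did not pass at E4 by edgeR (adjusted p = 0.0786) and did by DESeq2 (adjusted p = 0.0174). In hindbrain GLASTneg it was above the floor in 1 of 5 controls, 5 of 6 libraries at E1, 3 of 6 at E4 and 2 of 6 at Ech, with none of these stages passing. The libraries of all populations overlapped with their controls except spinal cord at Ech.

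In unimmunized mice the 2 hindbrain populations differed in 4 of 9 receptors, where 13.5% of all genes passed. Lifr, Tnfrsf1a and Ifngr1 were lower and Il6st was higher in GLASTpos than in GLASTneg astrocytes. Lifr held 38.8, 56.1, 41.1, 48.5 and 43.4 CPM in GLASTpos and 106, 87.9, 119, 148 and 216 CPM in GLASTneg, without overlap (log2 fold change -1.57 ± 0.28, adjusted p = 2.01e-05). Tnfrsf1a, at 23.5 to 49.0 against 86.7 to 121 CPM, and Ifngr1, at 23.3 to 40.1 against 61.8 to 80.5 CPM, also did not overlap (-1.49 ± 0.29, adjusted p = 9.36e-05, and -1.18 ± 0.31, adjusted p = 0.00517). Il6st was 100 to 138 CPM in GLASTpos against 48.9 to 90.5 CPM (0.71 ± 0.22, adjusted p = 0.0209), held in 7 of 10 fits that left out a library, and did not pass with the number in the library identifiers as a block (0.39, adjusted p = 0.698). The median of all genes in this comparison was -0.11.

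Control spinal cord GLASTneg astrocytes had lower Ifnar2 and Lifr than hindbrain GLASTneg astrocytes, 2 of 9 receptors against 5.33% of all genes. The groups did not overlap for either gene (Ifnar2 14.3 to 27.8 against 29.8 to 66.6 CPM, log2 fold change -0.98 ± 0.28, adjusted p = 0.0201; Lifr 51.9 to 85 against 87.9 to 216 CPM, -1.10 ± 0.28, adjusted p = 0.00579). Ifnar2 held in 7 of 10 fits that left out a library and did not pass with the number in the library identifiers as a block (-0.73, adjusted p = 0.73). Oligodendrocyte markers summed to 14358 to 41875 CPM in these spinal cord controls against 1470 to 5103 CPM in the hindbrain ones. Astrocyte markers summed to 13071 to 18366 against 20769 to 26283 CPM, and the part of both lists was not tested. The labels carry a sheet number, which was 25 to 56 for hindbrain GLASTneg and 60 or more for all libraries of hindbrain GLASTpos and control spinal cord. Sheet number and population cannot be told apart in these 2 comparisons.

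Within spinal cord the sheet number was entered as a covariate. The calls for Ifnar2 at E4 and Ech, Lifr at Ech and Il1r1 at E1 and Ech remained. The calls for Il17ra (E4 -0.93, adjusted p = 0.271; Ech -0.97, adjusted p = 0.0821), Ifngr1 at Ech (-0.92, adjusted p = 0.116), Il6st at E4 (0.70, adjusted p = 0.167), Il1r1 at E4 (adjusted p = 0.14), and Ifnar2 and Tnfrsf1a at E1 (0.99, adjusted p = 0.0585, and 0.97, adjusted p = 0.0718) kept their direction and did not pass. In the 1 E4 library with a sheet number of 57 or above, Il1r1 held 0 counts.

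The subtype experiment asked how naive astrocytes of forebrain, hindbrain and spinal cord differ, but its labels went against markers of the spinal cord. The 5 spinal cord homeobox genes summed to 414 to 504 CPM in the 3 libraries labelled hindbrain GLASTneg and to 0 in the 3 labelled spinal cord GLASTneg. Expression values in a supplementary list of the study matched the libraries to within 0.000492% under other group names for 12 of 15 libraries. Under those names the libraries labelled hindbrain GLASTneg are spinal cord GLASTneg, those labelled spinal cord GLASTneg are hindbrain GLASTpos, those labelled hindbrain GLASTpos are forebrain GLASTpos and those labelled forebrain GLASTpos are hindbrain GLASTneg. The homeobox genes match these names for the spinal cord libraries. Groups are named below by their labels, and every regional direction depends on that naming.

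Independent of the names, 3 of 9 receptors differed among the 5 isolated groups, namely Il17ra (adjusted p = 1.31e-06), Tnfrsf1a (adjusted p = 0.00132) and Ifngr1 (adjusted p = 0.0281), where 10.2% of 14957 genes passed. Il17ra was 253, 201 and 162 CPM in libraries labelled hindbrain GLASTneg, 213, 142 and 98.2 in those labelled forebrain GLASTpos, 96.7, 131 and 155 in those labelled spinal cord GLASTneg, 61.1, 86.4 and 83.7 in those labelled forebrain GLASTneg and 54.6, 35.8 and 46.2 CPM in those labelled hindbrain GLASTpos. The lowest 2 groups were those labelled forebrain GLASTneg and hindbrain GLASTpos, and no library of theirs reached one of the other 3 groups. Under the other names these 2 groups are forebrain GLASTneg and forebrain GLASTpos, and the group highest in Il17ra is spinal cord GLASTneg.

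Tnfrsf1a was highest in the libraries labelled hindbrain GLASTneg (173, 210 and 129 CPM) and lowest in those labelled spinal cord GLASTneg (44.6, 52.2 and 58.0 CPM), with the other 9 isolated libraries at 80.3 to 104 CPM. Oligodendrocyte markers summed to 10867 to 15644 CPM in the libraries labelled hindbrain GLASTneg, where Il17ra and Tnfrsf1a were highest, and to 1407 to 6629 CPM in the other isolated libraries, and their part was not tested. Ifngr1 was 126, 131 and 108 CPM in libraries labelled hindbrain GLASTpos and 143, 96.7 and 95.6 in those labelled forebrain GLASTneg, against 36.5 to 88.5 CPM in the other 9. The same 2 groups were thus lowest in Il17ra and highest in Ifngr1, and under the other names both are forebrain. The group highest in Tnfrsf1a is spinal cord GLASTneg under those names, and the lowest is hindbrain GLASTpos. Lifr lay at 33.5 to 67 CPM in libraries labelled spinal cord GLASTneg and 76.4 to 172 CPM in the rest, and the difference among groups did not pass (adjusted p = 0.221).

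By the labels, hindbrain GLASTpos against GLASTneg gave 2 of 9 receptors, Il17ra (log2 fold change -2.17 ± 0.34, adjusted p = 7.32e-07) and Ifngr1 (1.20 ± 0.37, adjusted p = 0.0446), with 4.29% of all genes passing. Libraries labelled spinal cord against those labelled hindbrain GLASTneg gave Tnfrsf1a (-1.75 ± 0.34, adjusted p = 8.78e-05) and Lifr (-1.11 ± 0.37, adjusted p = 0.0436), with 7.47% passing. Under the other names these libraries are hindbrain GLASTpos and spinal cord GLASTneg. The call for Ifngr1 held in 1 of 6 fits that left out a library (0.97 to 1.46) and that for Lifr in 4 of 6 (-1.33 to -0.71), while those for Il17ra and Tnfrsf1a held in all 6. Forebrain GLASTpos against GLASTneg gave none by edgeR or DESeq2, with 2 under an unadjusted p of 0.05 and 1.32% passing. Under the other names, no receptor passed in these 3 contrasts. Spinal cord against hindbrain GLASTneg was then 0.80 ± 0.33 for Tnfrsf1a (adjusted p = 0.371) and 0.19 ± 0.36 for Lifr (adjusted p = 0.946), opposite in sign to the values by label. Hindbrain GLASTpos against GLASTneg was then -0.25 ± 0.32 for Il17ra (adjusted p = 0.767), -0.95 ± 0.34 for Tnfrsf1a (adjusted p = 0.105) and -0.92 ± 0.36 for Lifr (adjusted p = 0.164), beside -1.49 and -1.57 for Tnfrsf1a and Lifr in the control mice of the EAE experiment. Ifngr1, also lower in GLASTpos in those mice, was at -0.28 ± 0.37 (adjusted p = 0.77). Il6st was at -0.46 ± 0.34 (adjusted p = 0.529), opposite in sign to those mice, where it was higher.

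**Figure D4:**
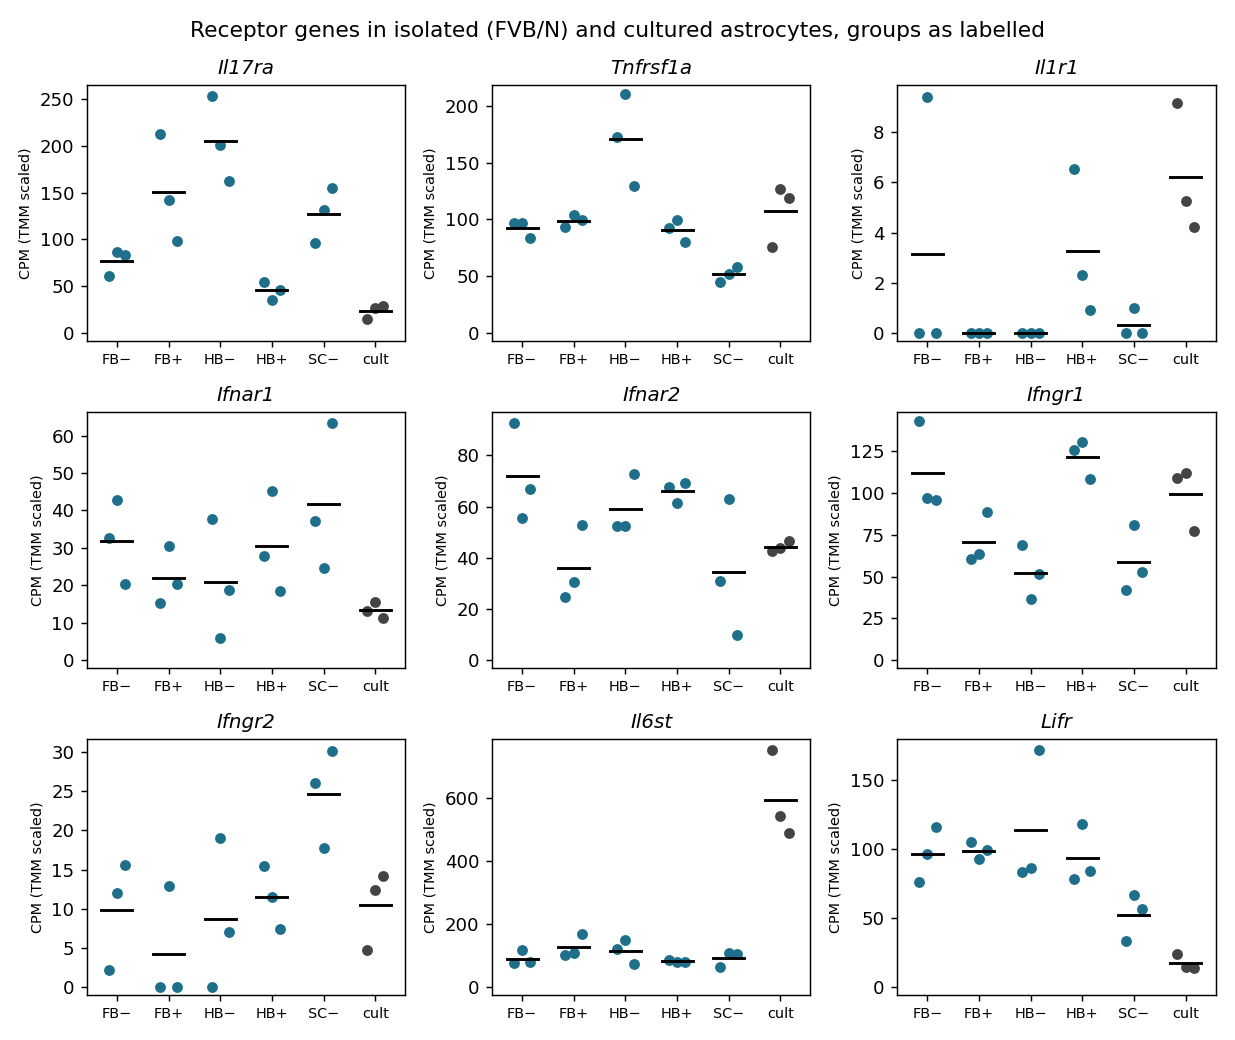
CPM of the 9 receptor genes in the 18 libraries of the subtype experiment (points, with the group mean as a line), by the group names of the labels. A supplementary list of the study gives other group names for 12 of the 15 isolated libraries. FB is forebrain, HB hindbrain and SC spinal cord, minus and plus stand for GLASTneg and GLASTpos, and dark points are cultured astrocytes. Il6st was at 491 to 752 CPM in culture and at 64.5 to 168 CPM in the isolated libraries.

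Cultured astrocytes differed from the isolated ones in 4 of 9 receptors, where 36% of 17126 genes passed and the median log2 fold change of all genes was 0.43. Il6st was higher, at 752, 543 and 491 CPM against 64.5 to 168 CPM (log2 fold change 2.55 ± 0.19, adjusted p = 8.32e-15). Lifr, at 23.9, 14.6 and 13.8 CPM against 33.5 to 172, and Il17ra, at 15.5, 26.3 and 29.4 CPM against 35.8 to 253, were lower (-2.35 ± 0.32, adjusted p = 1.04e-07, and -2.15 ± 0.30, adjusted p = 1.05e-07). None of these 3 genes overlapped between culture and isolated cells, so the comparison does not depend on the names of the isolated groups. Il1r1 was 9.15, 5.26 and 4.20 CPM in culture and above the floor in 2 of 15 isolated libraries (adjusted p = 0.00971), but 0.052 without cultured replicate 1 and 0.141 by DESeq2. Strain, age, region and culture cannot be told apart here, and myeloid markers summed to 419 to 3373 CPM in culture against 17.5 to 283 CPM.

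The study also asked for a log2 fold change above 1 or below -1. With that, 1 receptor remained in hindbrain GLASTneg at E1 and 1 at E4 (0.643% and 0.729% of all genes), 2 in GLASTpos at each of these stages (1.49% and 2.03%), and 1, 2 and 4 in spinal cord at E1, E4 and Ech (6.17%, 17.9% and 14.7%). Ifnar2 was thus kept at Ech alone. The number was 2 between spinal cord E4 and E1 and 1 between Ech and E4 (4.81% and 3.16%), 3 between the control hindbrain populations and 1 between control regions (10.5% and 4.2%), where Il6st and Ifnar2 dropped out, and 2 and 1 in the spinal cord responses at E4 and Ech (7.92% and 6.8%). The calls by label in the subtype experiment stayed at 2 and 2 (3.98% and 7.03%) and those in culture at 4 (31.7%). No receptor remained in the chronic hindbrain (0.193% in GLASTneg and 1.31% in GLASTpos) or in the forebrain (1.21%).

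Receptors that pair with the 9 genes were followed as a list of 15 co-receptors and decoys. In spinal cord 1 rose and 2 fell at E1, 3 rose and 3 fell at E4, and 1 rose and 2 fell at Ech, where 8.42%, 22.4% and 18.7% of all genes passed. Without E1 replicate 2, 1 rose and 3 fell at E1, and without E4 replicate 2 the E4 numbers were again 3 and 3 (10.2% and 20.1% of all genes). Cntfr, the CNTF-binding subunit that joins gp130 and LIFR, fell from 153 ± 19.8 CPM (SD, n = 5) in controls to 56.4 ± 45.1 (n = 5) at E1, 13.8 ± 5.01 (n = 6) at E4 and 16.0 ± 5.21 CPM (n = 6) at Ech. The E4 log2 fold change was -3.45 ± 0.29 (adjusted p = 4.2e-16). Il11ra1, the IL-11 receptor, fell from 75.5 ± 30.6 to 20.2 ± 14.7 CPM at E4 and 12.7 ± 3.48 CPM at Ech (-2.58 ± 0.30, adjusted p = 1.8e-10). Il17rd, an inhibitory member of the IL-17 receptor family, was 17.2 ± 10.4 CPM in controls and 0.718 ± 0.903 CPM at E4 (-4.79 ± 0.65, adjusted p = 8.29e-09). Astrocyte markers were below every control in all E4 and Ech libraries, and their part was not tested.

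Osmr, the oncostatin M receptor that joins gp130, was at 1.38 CPM or less in all hindbrain GLASTneg controls. It reached 9.02 to 32.7 CPM at E1 and 14 to 22.3 CPM at E4, at least 13.5- and 11.6-fold higher against the floor (adjusted p = 0.0211 and 0.029). In spinal cord it was at 0 in controls and at means of 6.98 CPM at E1, 1.23 at E4 and 2.91 CPM at Ech, at least 6.06-, 1.07- and 2.52-fold higher (adjusted p = 0.00111, 0.0184 and 0.00325). Il6ra, the IL-6 binding subunit, had group means of at most 3.52 CPM, and Il17rc, the partner of IL17RA, had 2.89 CPM in spinal cord controls and 4.21 CPM in hindbrain GLASTneg controls.

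Il1rap, the accessory protein of IL1R1, was 39.4 ± 24.5 CPM (SD, n = 5) in spinal cord controls and 100 ± 32.4 (n = 5) at E1 without passing. It was higher in control spinal cord than in control hindbrain GLASTneg (7.59 ± 2.55 CPM, log2 fold change 2.39 ± 0.60, adjusted p = 0.00579). The decoy receptor Il1r2 and the IL-18 receptor Il18r1 were at or under the floor in GLASTpos hindbrain controls and at least 15.6- and 34.1-fold higher at E1 (adjusted p = 0.00324 and 0.000509). In spinal cord E4 replicate 2, Il1r2 reached 97.9 CPM against at most 11.7 CPM in the other 5 libraries. In culture 8 of the 12 co-receptors tested were higher and 1 was lower, in a comparison in which 36% of all genes passed with a median log2 fold change of 0.43.

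**Figure D5:**
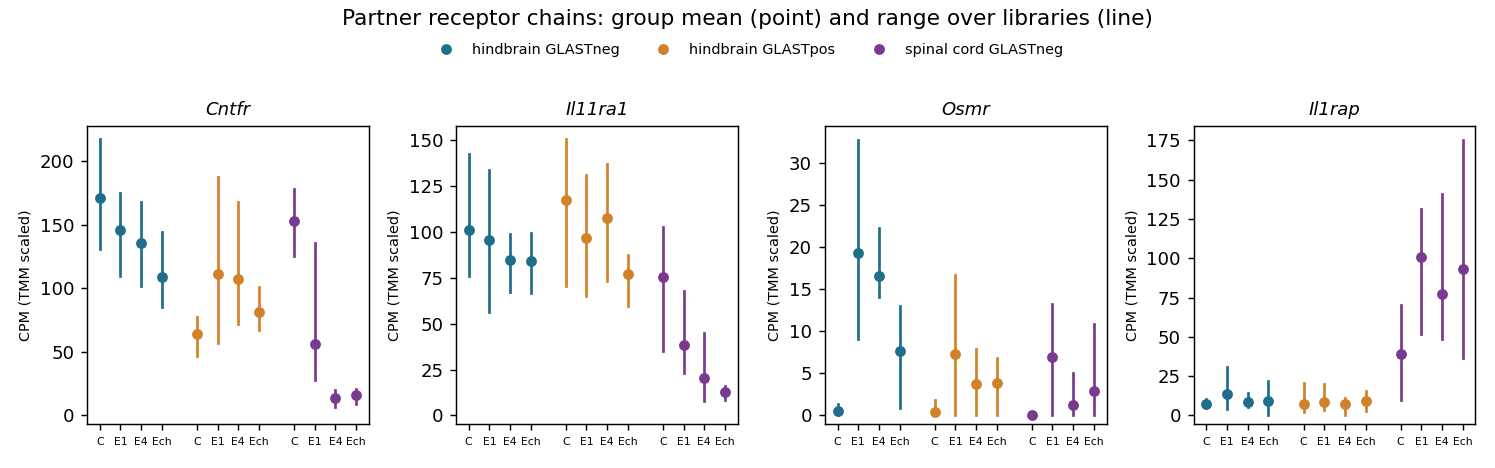
CPM of partner receptors by population and stage, with the mean as a point and the range over libraries as a line. Cntfr and Il11ra1 were lower in spinal cord at E4 and Ech (Cntfr at 13.8 and 16.0 CPM against 153 CPM in controls), and Osmr was higher at E1 and E4 in hindbrain GLASTneg.

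Among 14 ligand genes tested, 2 were higher at E1, 3 at E4 and 2 at Ech in spinal cord, where 3.94%, 9.76% and 7.64% of all genes were higher, and none was lower. Without E4 replicate 2, 2 were higher at E4. Il1b, the IL-1 ligand made mainly by myeloid cells, was at or under the floor in spinal cord controls and at least 13.2-fold higher at E1, 58.2-fold at E4 and 3.41-fold at Ech (adjusted p = 0.000601, 1.27e-06 and 0.00706). Il1rn, the antagonist of IL-1, was at least 4.44-, 32.2- and 2.21-fold higher. At E4 these values came largely from replicate 2, which held 347 CPM of Il1b and 183 CPM of Il1rn, against 1.69 to 17.4 and 1.69 to 18.2 CPM in the other 5 libraries. Without it the E4 bounds were 9.53-fold for Il1b (adjusted p = 6.78e-05) and 6.84-fold for Il1rn (adjusted p = 0.000404). Tnf was at 35.5 CPM in that library and at 0 in the others.

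Genes that carry the signal inside the cell were followed next. Of 24 transducers, 6 rose and 4 fell in spinal cord at E1, 9 rose and 6 fell at E4, and 7 rose and 5 fell at Ech, with medians of 0.36, 0.57 and 0.23, beside the 8.42%, 22.4% and 18.7% of all genes that passed. Without E1 replicate 2 the E1 numbers were 6 and 3, and without E4 replicate 2 those at E4 were again 9 and 6. Irf9, a DNA-binding subunit of the transcription factor activated by type I interferon, had a mean of 20.4 CPM in controls, 169 at E1, 188 at E4 and 102 CPM at Ech. Stat3, which is activated through gp130, had means of 145, 608, 521 and 443 CPM (log2 fold change 2.06 ± 0.24 at E1, adjusted p = 2.11e-09). Irak2, a kinase of the IL-1 receptor pathway, had means of 75.7, 24.8, 6.9 and 4.42 CPM (-4.06 ± 0.45 at Ech, adjusted p = 2.46e-11), and Chuk, a kinase that activates NF-kappaB, fell by 1.84 at Ech (SE 0.35, adjusted p = 3.28e-05). In hindbrain GLASTneg 4 of 24 rose at E1 and at E4 and none fell, and in GLASTpos 5 rose at E1 and at E4. Of all genes 0.677% and 0.755% passed at these stages in GLASTneg and 1.58% and 2.18% in GLASTpos.

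Of 17 inhibitors of these pathways, 3 rose at E1, 6 at E4 and 2 at Ech in spinal cord, where 3.94%, 9.76% and 7.64% of all genes were higher, and 1 fell at Ech, where 11% were lower. Without E1 replicate 2 the E1 number was 2, and without E4 replicate 2 the E4 number was 4. Socs3, the inhibitor of gp130 signalling, was at or under the floor in spinal cord and hindbrain GLASTneg controls. It was at least 57-, 23.7- and 36.5-fold higher in spinal cord at the 3 stages and at least 8.97- and 7.83-fold higher in hindbrain GLASTneg at E1 and E4. Usp18, an inhibitor that acts at IFNAR2, rose in spinal cord at E1 (log2 fold change 3.62 ± 0.70, adjusted p = 0.000202) and E4 (3.74 ± 0.69, adjusted p = 1.55e-05).

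Known target genes of the interferon and gp130 pathways were higher in all 3 populations, including hindbrain, where no interferon receptor passed. The target lists were chosen with earlier results of these data known, so that the counts describe these genes and are not an independent test of the pathways. Of 8 type I interferon targets, 7, 8 and 7 rose in spinal cord at E1, E4 and Ech, 6, 6 and 4 in hindbrain GLASTneg and 7, 6 and 2 in hindbrain GLASTpos. Of 9 interferon gamma targets the numbers were 8, 8 and 8, then 7, 8 and 4, and then 8, 7 and 1. Of 6 gp130 targets they were 4, 5 and 4, then 4, 4 and 3, and then 4, 4 and 2. None of these fell. Without E4 replicate 2 the spinal cord numbers at E4 were 7, 7 and 4. Across all genes 3.94%, 9.76% and 7.64% were higher in spinal cord at the 3 stages. In either direction 0.677%, 0.755% and 0.197% of all genes passed in hindbrain GLASTneg and 1.58%, 2.18% and 1.43% in hindbrain GLASTpos. Median log2 fold changes of the interferon gamma targets, with genes under the floor at their bound, were 5.45, 5.55 and 4.68 in spinal cord and 4.90, 5.60 and 2.87 in hindbrain GLASTneg. Those of all 9 receptors, most of them of other pathways and taken without bounds, were 0.28, 0.26 and 0.07, and 0.44, 0.54 and 0.04. Of the interferon gamma receptor chains, Ifngr1 was lower in spinal cord at Ech, and with all libraries neither chain passed at another stage in these populations.

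Ifit3, an interferon-induced gene, rose in spinal cord by 5.85 ± 0.66 at E1 (adjusted p = 1.25e-09), and Iigp1, a GTPase induced by interferon gamma, by 7.41 ± 0.84 (adjusted p = 1.25e-09). Serpina3n, a STAT3 target of reactive astrocytes, rose by 6.45 ± 0.59 (adjusted p = 5.96e-13). Targets of TNF and IL-1 were mixed, with 3, 2 and 2 of 8 higher and 1, 1 and 2 lower at the 3 stages in spinal cord. Of all genes 3.94%, 9.76% and 7.64% were higher there and 4.48%, 12.7% and 11% lower. Vcam1, an adhesion molecule found on astrocytes, fell by 1.6, 3.82 and 4.23 on the log2 scale in spinal cord (adjusted p = 0.000271, 8.89e-16 and 2.31e-17). Of the 6 IL-17 targets 4 were tested and 2 rose at each stage in spinal cord, beside the same shares of all genes. Among them was Cebpd, a transcription factor (3.79 ± 0.52 at E1, adjusted p = 1.68e-07). Without E1 replicate 2, 1 of the 4 IL-17 targets rose at E1.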

How the data were processed

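RNA was measured in 66 EAE libraries and in 18 libraries of the subtype experiment. Per the labels and the study's methods, the authors prepared QuantSeq 3′ FWD libraries, aligned reads to GRCm38 with HISAT 0.1.5 (Ensembl annotation) and counted reads per gene with HTSeq 0.6.1p1 in union mode. They deposited raw counts, 1 table per experiment, without normalization or pooling. Whether HTSeq used strand is not given in the sources used here. Every column was mapped to a sample (0 were left over), and no 2 libraries were identical.

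The counts were tested here with edgeR 4.0.16 (quasi-likelihood, TMM, two-sided) in R 4.3.3 after removal of genes under 10 summed counts, which left 23324 genes in the EAE fit (all 66 libraries, 12 groups), 14957 in the fit of the 15 isolated libraries and 17126 with the 3 cultured ones. P-values were adjusted by Benjamini-Hochberg over all genes of a fit, and a gene passed at an adjusted p under 0.05. "Higher", "lower", "rose" and "fell" refer to genes that passed. Standard errors are the log2 fold change divided by the square root of F. Summaries were made in Python 3.11.15 (pandas 2.3.3, matplotlib 3.10.9). The isolated libraries held 416768 to 1269316 counts, for which 3 counts equal 2.36 to 7.2 CPM, and the cultured ones 2183464 to 8188074. For a gene with at most 3 counts in each library of a group, the fold is a lower bound, computed against the mean floor per library. The study itself used DESeq2.

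The 9 receptors are named in every comparison. Of each pathway list, the detected partner receptors are named, with up to 2 genes per direction with the lowest adjusted p in spinal cord, and a few further genes chosen after their values were seen. The members and the lists were chosen with earlier results of these data known. Of the pathway genes so named, 1 is not reported here. The check of the region labels with homeobox genes was added after the data were seen.

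Groups and replicate numbers were taken from the labels. Libraries with the same number were no more alike than others (mean correlation of deviations -0.0034 against 0.0008), so they were not paired. Between populations, libraries of 1 stage that shared an identifier number were slightly more alike (mean 0.0374 against -0.0043, with 20% and 6.81% of pairs over 0.1). The labels do not say what this number marks, and it was used as a block in an alternative. Alternatives were DESeq2 1.42.0, its size factors, other filters, fits within a population, blocks for replicate and identifier numbers, the sheet number of the labels, other names for the subtype groups, and leaving out each library (for the pathway lists, 2 libraries, chosen after the data were seen), where fits reused the dispersion trend of all libraries. The tests were checked on simulated data.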

Additional observations from a re-analysis of the deposited data

Results flagged for a closer look

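Single libraries stood far from the rest of their group in 6 of 106 combinations of receptor and group tested by Dixon's criterion, and chance flags about 1 in 20. In spinal cord at E4, replicate 2 was highest for Il17ra, at 125.3 CPM with the nearest other library at 67.9 CPM, and for Ifngr1, at 129.4 CPM with the nearest at 29.9 CPM. The same library held 6590 CPM of myeloid markers, 97.9 CPM of Il1r2 and 347 CPM of Il1b. In control hindbrain GLASTpos, replicate 2 was lowest for Ifnar1, at 7.58 CPM from 20 counts, with the nearest at 23.8 CPM.

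For Il1r1 the flagged libraries rested on few counts. Control hindbrain GLASTpos replicate 1 stood at 0.4087 CPM from 1 count with all others at 0. Hindbrain GLASTneg E1 replicate 4 stood at 6.806 CPM from 18 counts (nearest 3.61 CPM), and hindbrain GLASTneg Ech replicate 3 at 5.249 CPM from 13 counts (nearest 1.65 CPM).

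The stage effects of spinal cord and hindbrain GLASTneg astrocytes differed by a test of the difference for Il17ra at E4, by -2.091 on the log2 scale, for Tnfrsf1a at E4, by -1.539, and for Il17ra at Ech, by -1.53. The part of the sheet number in these differences was not tested. Without spinal cord E4 replicate 2 the E4 difference of Ifngr1 passed as well (-1.04 ± 0.35, adjusted p = 0.0459).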

How the results depend on the processing

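Of the values of single receptors recomputed under an alternative, 3953 kept their side of the threshold, 61 lost the threshold and 20 gained it. A further 3, which had passed before, changed sign. Values that did not pass in either setting are among the 3953 even where their sign changed. The number of receptors passing in hindbrain GLASTneg at E1 was 1 and became 2 with DESeq2, with no filter and with that population alone. At E4 it was 1 and became 2 with no filter and with that population alone. With the sheet number as a covariate, 1 passed in spinal cord at E1 (from 3), 1 at E4 (from 4), 3 at Ech (from 5) and 0 between E4 and E1 (from 2). In libraries with a sheet number of 57 or above, which leave 1 E4 library assumed to vary like the other groups, these were 1, 0 and 3. The identifier number as a block left 1 receptor between control spinal cord and hindbrain GLASTneg (from 2), while the calls in the spinal cord responses at E4 and Ech held. With filterByExpr, 3 receptors differed in the Ech response (from 1). In the subtype experiment, hindbrain GLASTpos against GLASTneg gave 1 with DESeq2 size factors, 1 with no filter and 0 under the other group names (from 2), and spinal cord against hindbrain gave 1 with no filter and 0 under those names (from 2). Among the receptors that passed by label, the sign then changed for Ifngr1 (-0.28), Tnfrsf1a (0.80) and Lifr (0.19). The cause of the other changes was not tested.

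With the replicate number as a block, Tnfrsf1a in hindbrain GLASTneg at E1 was 1.27 (adjusted p = 0.00651), and the number of receptors passing stayed at 1 there and at 1 at E4. The block moved none of the other counts by more than 1.5 times.

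Leaving out 1 library at a time gave 1 to 2 receptors in hindbrain GLASTneg at E1 and 1 at E4, 2 in GLASTpos at E1 and E4, 1 to 3, 3 to 5 and 4 to 5 in spinal cord at E1, E4 and Ech, 1 to 2 between E4 and E1 and between Ech and E4, 3 to 4 between the control hindbrain populations, 1 to 2 between control regions, 2 to 3 and 1 to 2 in the spinal cord responses at E4 and Ech, 1 to 2 in both subtype contrasts with calls, 2 to 3 among the isolated groups and 3 to 5 in culture. Depth limits Il1r1, which was above 3 counts in 30 of 66 EAE libraries.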

Other observations

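Some genes followed a receptor closely over the 12 EAE group means. Among 10972 genes that averaged 5 CPM or more, those with the highest Pearson correlation of log2 mean CPM were Trim30d (0.895) and Timp1 (0.894) for Il17ra, Dnpep (0.889) and Crispld2 (0.885) for Tnfrsf1a, Tyw5 (0.944) and Plcg1 (0.941) for Ifngr1, Ece2 (0.935) and Ankra2 (0.933) for Ifngr2, and Ccdc93 (0.968) and Mapkbp1 (0.963) for Ifnar1. For Ifnar2 they were Gm5617 (0.897) and Prps1 (0.893), for Il1r1 Irgm1 (0.926) and Stat3 (0.917), for Il6st Smim8 (0.974) and Arl6ip1 (0.961), and for Lifr Atf7 (0.966) and Slc25a29 (0.952). The genes were picked from 10972 as the most alike, so that the size of these values is set in part by the picking. Irgm1 and Stat3 are themselves induced by interferon or gp130 signals.

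Between receptors, Ifngr1 and Lifr had the highest correlation over the 12 group means (0.773), followed by Ifngr1 and Ifnar1 (0.730), Il17ra and Ifnar1 (0.715) and Ifngr2 and Il6st (0.692). The lowest was that of Ifngr2 and Lifr (-0.533). The 2 chains of a receptor were not the most alike pairs. The 12 points share populations and, within a population, regional composition.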
